A study of Mus musculus with 9 samples.

Results

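Glucose transport and glycolysis were followed here through 35 genes. They cover the sugar from its entry into the cell to lactate, and pyruvate up to the gate of the mitochondrial cycle. The 35 members were chosen by name and all of them were found among the 52025 genes listed in the tables. The study asked what changes in the mouse ovary during iFFA, the initial step in which a fluid-filled antrum forms in the follicle. RNA-Seq libraries came from untreated Kunming mice, a stock strain, at postnatal day (PD) 14, 15 and 16, with 3 libraries for each day and no allele, agent or other manipulation in any group. The authors deposited FPKM, that is fragment numbers scaled by exon length and by the mapped fragments of the library.

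Cells take up glucose through the GLUT carriers (Slc2a genes), and hexokinase traps it as glucose 6-phosphate. Phosphofructokinase commits it to glycolysis and is tuned by fructose 2,6-bisphosphate, which the bifunctional Pfkfb enzymes make and remove. The lower steps yield ATP and pyruvate. Lactate dehydrogenase then converts pyruvate to lactate and back, monocarboxylate carriers (Slc16a genes) move lactate across the membrane, and pyruvate dehydrogenase feeds the mitochondrion unless a Pdk kinase switches it off. In the follicle, granulosa cells metabolise glucose and pass pyruvate to the oocyte, which uses glucose poorly.

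The material was checked against cell type markers before the members were read. The labels name granulosa cells as the source and ovary as the tissue, whereas the study's methods describe whole ovaries. All 8 granulosa cell markers, all 10 oocyte markers and all 6 theca and interstitial cell markers had a mean above 1 FPKM, so the markers go against granulosa cells alone. In such bulk samples, fewer cells of a type and less RNA per cell cannot be told apart. The summed oocyte markers were 1147 to 1433 FPKM at PD14, 1496 to 1613 at PD15 and 1090.0 to 1169 at PD16, and PD15 overlapped neither other day. The summed red cell markers were 105 to 147 FPKM at PD14, 46.4 to 63.2 at PD15 and 60.8 to 116 at PD16. Of the 8 skeletal muscle markers, 1 had a mean above 1 FPKM, and muscle creatine kinase Ckm stayed at 0.0420 to 0.159 FPKM. Depth, read from the FPKM step that stands for 1 fragment, was 20.4 to 28.7 M mapped fragments per library. The part of cell composition in the results was not tested.

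Several members have annotated copies of nearly the same sequence, and how the authors' counting shared reads between them is not known, so their values are uncertain. The stretches shown here are the coding bases of 3 members beside those of their most abundant processed pseudogene. They are 61 bases long, read 5′ to 3′ from GENCODE M21 transcripts, and capitals mark the bases that differ.
Gapdh: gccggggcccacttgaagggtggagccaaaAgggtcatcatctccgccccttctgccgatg
Gm13394: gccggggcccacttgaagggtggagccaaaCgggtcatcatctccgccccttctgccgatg
Eno1: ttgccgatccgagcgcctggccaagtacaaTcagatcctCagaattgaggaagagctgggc
Gm4735: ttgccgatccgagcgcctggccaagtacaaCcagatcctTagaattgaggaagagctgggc
Ldhb: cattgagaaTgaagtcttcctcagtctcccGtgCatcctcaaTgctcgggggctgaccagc
Gm5514: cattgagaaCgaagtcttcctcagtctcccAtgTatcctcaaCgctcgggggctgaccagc
Counted from base 1 of the member's transcript, with the member's base first, the Gapdh stretch held A586C, the Eno1 stretch held T1622C and C1631T, and the Ldhb stretch held T969C, G990A, C993T, T1002C. Over their whole aligned length, Gapdh and Gm13394 differed at 1 of 1000 bases, Eno1 and Gm4735 at 5 of 1302, and Ldhb and Gm5514 at 20 of 1002. A copy was taken as an annotated gene that aligned to the member at 95% identity or more over at least 300 bases. By that measure 11 members had a copy, 24 had none, and 8 had a copy with a mean above 1 FPKM.

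Few members passed the test between PD14 and PD16. Of the 33 members tested, 1 fell at PD15 against PD14, the enolase gene Eno1b, and 3 fell at PD16 against PD14, namely Eno1b, the aldolase gene Aldoc and the pyruvate dehydrogenase kinase gene Pdk2. None passed the test at PD16 against PD15, and no member rose in any comparison. The transporters, hexokinases, phosphofructokinases, pyruvate kinase and pyruvate dehydrogenase did not pass. A gene entered the test when the mean of at least 1 day exceeded 1 FPKM, and Eno2 and Slc16a7 fell short of that.

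Several marker sums were also lower after PD14. The oviduct and epithelial markers, 5 of 7 with a mean above 1 FPKM, summed to 58.1 to 64.9 FPKM at PD14, 50.7 to 57.04 at PD15 and 43.9 to 48.5 at PD16. The endothelial markers, 5 of 5 above 1 FPKM, summed to 56.6 to 59.7, 52.3 to 56.3 and 50.9 to 53.2 FPKM. Both sums lay below PD14 in every library of PD15 and PD16, as did Eno1b, Aldoc and Pdk2. Of the 15495 tested genes, 1581 lay below PD14 in every PD15 library and 2091 in every PD16 library. The fat marker sum, at 6.89 to 8.05, 4.60 to 5.20 and 4.24 to 6.05 FPKM, was mostly Plin1, with means of 6.97, 4.23 and 4.65 FPKM. It was the 1 of 6 fat markers above 1 FPKM, and Adipoq, Lep and Ucp1 were listed at 0 in some libraries. The leukocyte marker sum, with 4 of 6 above 1 FPKM, lay higher, at 19.2 to 21.9, 24.4 to 29.3 and 24.99 to 31.3 FPKM. Lyz2 made up most of that difference, with means of 8.91, 14.02 and 15.8 FPKM. Adgre1 was higher in every PD16 library (1.09 to 1.33 FPKM) than at PD14 (0.620 to 0.931). Csf1r was lower in every PD15 library than at PD14, and C1qa, Cd68 and Ptprc overlapped between days. The theca and interstitial markers, 6 of 6 above 1 FPKM, summed to 1559 to 2191, 1134 to 1716 and 1166 to 1581 FPKM, mostly Hsd3b1. Both later days overlapped PD14 in that sum. In the same list, Lhcgr was lower in every PD15 and PD16 library than at PD14. Cyp11a1 had means of 46.8, 25.2 and 32.8 FPKM and Cyp17a1 of 28.9, 21.6 and 37.1. Star had means of 3.89, 4.75 and 5.58 FPKM, and Insl3 overlapped between days. The stromal markers, 6 of 6 above 1 FPKM, were lower at PD15 in every library, with 538 to 630.0, 464 to 535 and 536 to 562 FPKM. The red cell markers, 5 of 6 above 1 FPKM, were lower in every PD15 library, whereas PD16 overlapped PD14. The granulosa cell markers, 8 of 8 above 1 FPKM, summed to 2700 to 3350, 2509 to 2915 and 2689 to 3163 FPKM, and overlapped between days. In that list, Amh was higher in every PD15 and PD16 library than at PD14, whereas Hsd17b1 and Cyp19a1 were lower. The part of these cell types in the 3 falls was not tested.

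The test was limma on log2(FPKM + 1) over the 15495 tested genes, with Benjamini-Hochberg adjusted p-values, and a call means an adjusted p under 0.05. At PD15 against PD14, 0.678% of all tested genes were called, beside 1 of 33 members. At PD16 against PD14 the background was 4.25%, beside 3 of 33 members, and at PD16 against PD15 it was 0.729%, beside 0 of 33. By the F test over all 3 days, 2 members were called, Aldoc and Eno1b, and 3.03% of all tested genes. Leaving out any single library took the F test's count to 1, Eno1b, and its background to between 0.643% (without PD14 replicate 3) and 2.28% (without PD15 replicate 3). At PD16 against PD14 the members called became 1 without PD14 replicate 1, PD14 replicate 3 or PD16 replicate 1, and the background fell as low as 0.592% without PD16 replicate 1.

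Looser counts gave the following. An unadjusted p under 0.05 was reached by 8 members at PD15 against PD14, where the background was 14.7%, by 13 at PD16 against PD14, with 22.8%, and by 3 at PD16 against PD15, with 14.1%. Libraries of the 2 days did not overlap for 11 members (33.3%) at PD15 against PD14, 3 of them higher and 8 lower, against 20.6% of all tested genes. At PD16 against PD14 this held for 13 members (39.4%), 3 higher and 10 lower, against 28.5%. At PD16 against PD15 it held for 2 members (6.06%), against 19.6%. The median log2 change of the members was -0.052, -0.080 and -0.0066 in these 3 comparisons, and that of all tested genes was 0.0065, 0.0093 and 0.0091. The members' medians thus lay within 0.1 log2 units of all genes.

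**Figure D1:**
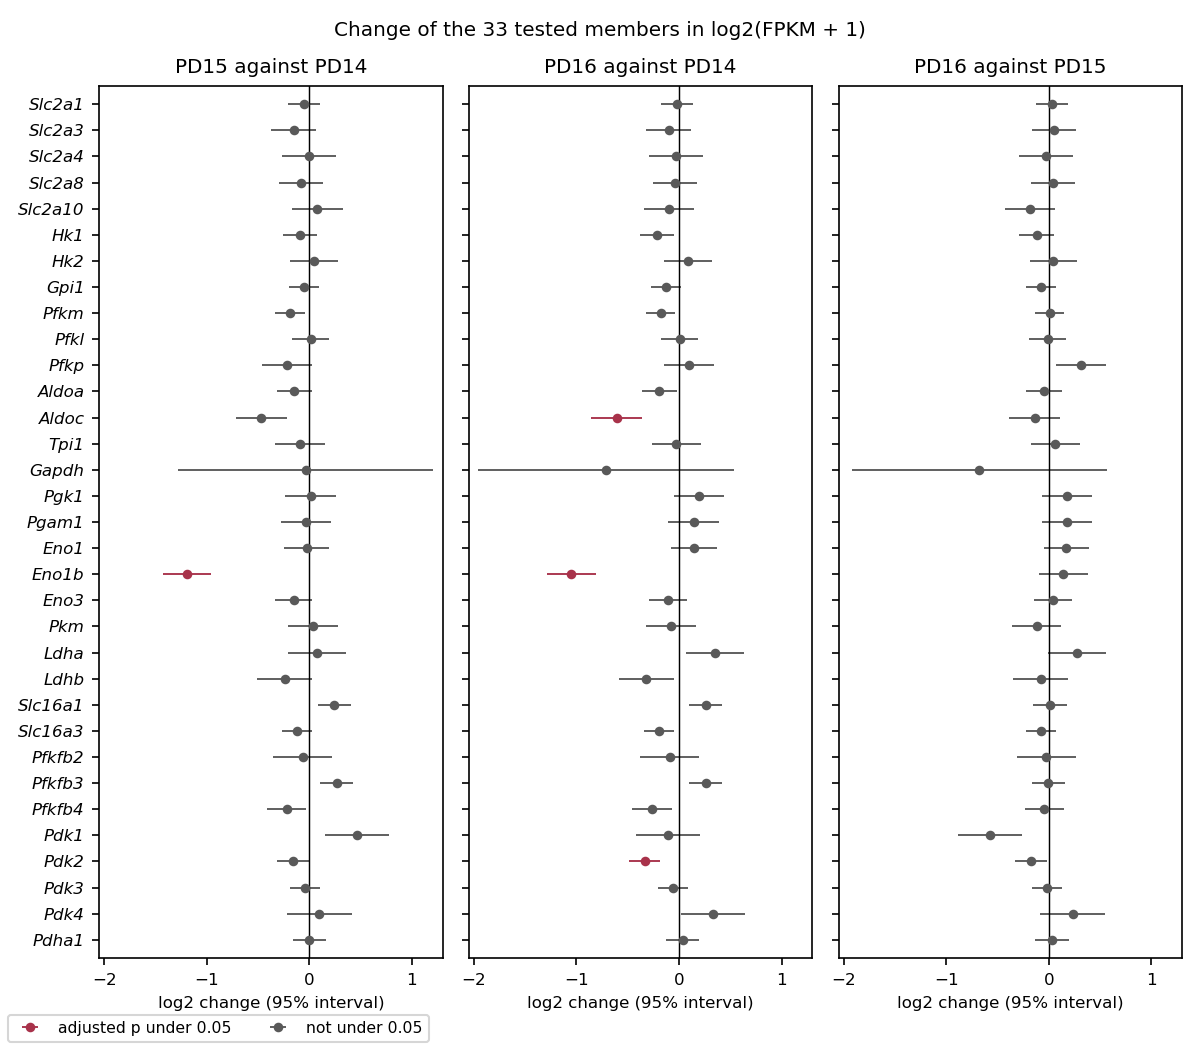
Log2 change of the 33 tested members in log2(FPKM + 1), with 95% intervals from limma, for PD15 against PD14, PD16 against PD14 and PD16 against PD15. Red marks an adjusted p under 0.05: Eno1b at -1.19 and -1.05, Aldoc at -0.61 and Pdk2 at -0.34, while most members sat close to 0.

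The members spanned a wide range of levels. Mean FPKM over the 9 libraries ran from 0.764 for Eno2 to 473 for Ldhb, with a median of 6.19. By their own rows, the lactate dehydrogenase subunit Ldhb was listed far above the others, and was followed by Aldoa at 113, Pkm at 98.9, Tpi1 at 88.8, Pgam1 at 85.4, Pgk1 at 73.6 and Ldha at 70.7. From Aldoa to Ldha, the ranges over the 9 libraries overlapped between each pair of neighbours in that order. All of these but Aldoa have copies, and Gapdh and Eno1 have no safe place in it, since the summed FPKM of their copies exceeded their own. Glucose transporters, hexokinases and regulatory kinases sat far lower, and none of them exceeded 15.4 FPKM in any library. FPKM is scaled by the exon length of the gene, which exceeds the length of its transcript by unequal factors. For Hk1 the lengths were 8532 and 3851 bases, and for Ldhb 1570 and 1304. Summed with copies and scaled to transcript length, Ldha had means of 119, 126 and 153 FPKM at PD14, PD15 and PD16. Pgam1 then had 94.3, 92.1 and 105.1 FPKM, below Ldha. The order given here is thus that of the listed rows and not one of transcripts.

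**Figure D2:**
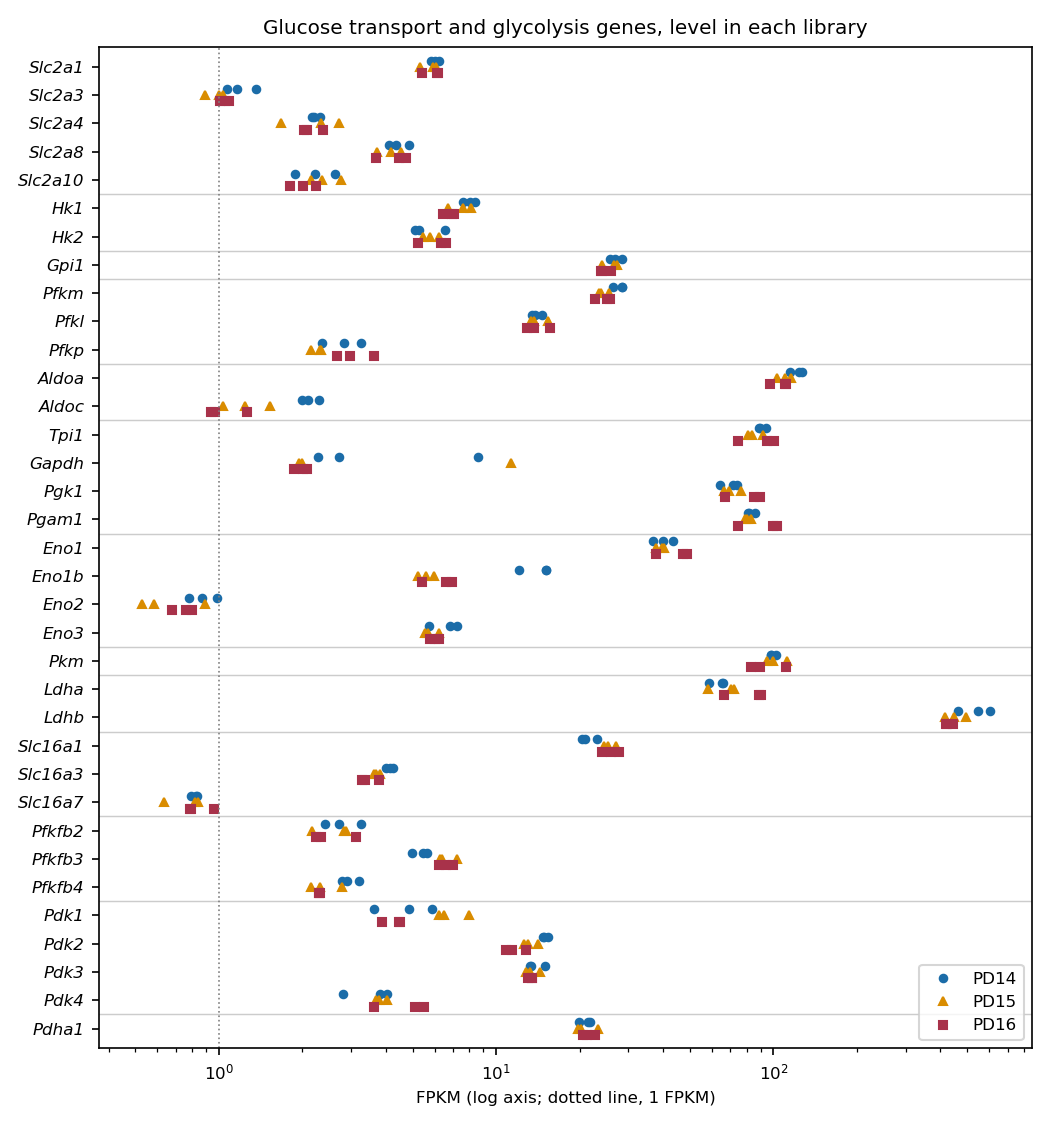
FPKM of each of the 35 members in each of the 9 libraries on a log axis, grouped by step of the pathway, with circles for PD14, triangles for PD15 and squares for PD16. Points of the 3 days lie together for most members, while Eno1b and Aldoc at PD14 stand to the right of the later days.

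Glucose transporters did not pass the test. Slc2a1, the basal carrier GLUT1, had 5.82, 6.21 and 6.01 FPKM at PD14, 5.92, 6.06 and 5.31 at PD15, and 5.42, 6.14 and 6.17 at PD16. The days overlapped, and the limma interval of the log2 change was -0.21 to 0.10 at PD15 and -0.18 to 0.13 at PD16 against PD14. Slc2a8, an intracellular carrier (GLUT8), had 4.86, 4.35 and 4.10 FPKM at PD14, 4.16, 4.54 and 3.72 at PD15, and 3.69, 4.46 and 4.72 at PD16, with intervals of -0.30 to 0.14 and -0.26 to 0.17. Slc2a10 (GLUT10) had 1.89, 2.23 and 2.63 FPKM at PD14, 2.76, 2.35 and 2.15 at PD15, and 1.81, 2.23 and 2.02 at PD16, with intervals of -0.17 to 0.32 and -0.35 to 0.15. Both overlapped between all days. The insulin-responsive carrier Slc2a4 ranged over 1.68 to 2.72 FPKM and the high-affinity carrier Slc2a3 over 0.887 to 1.36 FPKM. Slc2a3 was lower in every PD15 library than in any PD14 library (log2 change -0.15, adjusted p = 0.497). By listed FPKM, which rests on exon length and not transcript length, Slc2a1 had the highest mean of the 5 on every day.

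At the hexokinase step, Hk1, the widely expressed enzyme, and Hk2, the inducible one, were of similar listed FPKM. Their exon lengths were 8532 and 5969 bases, beside transcripts of 3851 and 5513 bases. The lowest library held 1303 fragments for Hk1 and 638 for Hk2, so the similarity does not hold per transcript length. Hk1 had 8.02, 8.42 and 7.60 FPKM at PD14, 7.61, 8.11 and 6.70 at PD15, and 6.41, 7.04 and 6.92 at PD16. Each PD16 library lay below each PD14 library, but the log2 change of -0.21 did not pass (adjusted p = 0.132). Hk2 had 5.11, 6.55 and 5.25 FPKM at PD14, 5.79, 6.24 and 5.43 at PD15, and 6.30, 6.62 and 5.24 at PD16, and its days overlapped. Its intervals were -0.19 to 0.28 at PD15 and -0.14 to 0.32 at PD16 against PD14. Gpi1, which turns glucose 6-phosphate into fructose 6-phosphate, had 25.7, 26.9 and 28.5 FPKM at PD14, 27.3, 26.7 and 24.1 at PD15, and 23.97, 25.9 and 24.03 at PD16. Its days overlapped, with a log2 change of -0.13 at PD16 (adjusted p = 0.286).

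Of the phosphofructokinase subunits, the muscle-type Pfkm was the most abundant. It had 28.6, 28.5 and 26.5 FPKM at PD14, 23.9, 25.6 and 23.4 at PD15, and 22.7, 25.7 and 25.1 at PD16. Both later days lay below PD14 without overlap, with log2 changes of -0.19 and -0.18 that did not pass (adjusted p = 0.211 and 0.135). The platelet-type Pfkp had 2.36, 3.25 and 2.83 FPKM at PD14, 2.33, 2.31 and 2.16 at PD15, and 2.67, 3.62 and 2.97 at PD16. It was lowest at PD15 in all 3 libraries, and the log2 change from PD15 to PD16 was 0.32 (adjusted p = 0.225). The liver-type Pfkl ranged over 12.9 to 15.6 FPKM and overlapped between days.

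The allosteric activator of phosphofructokinase depends on the Pfkfb enzymes, and here a pair of isoforms lay on opposite sides. Pfkfb3, the isoform with the strongest kinase bias, had 5.43, 5.62 and 4.97 FPKM at PD14, 7.21, 6.38 and 6.29 at PD15, and 6.20, 6.58 and 6.98 at PD16. Every library of PD15 and PD16 lay above every PD14 library, with log2 changes of 0.27 ± 0.071 and 0.26 ± 0.071 (SE), and neither passed (adjusted p = 0.139 and 0.0739). Pfkfb4 had 2.79, 2.90 and 3.21 FPKM at PD14, 2.31, 2.78 and 2.15 at PD15, and 2.32, 2.30 and 2.30 at PD16. Its later libraries all lay below PD14, with log2 changes of -0.22 and -0.26 (adjusted p = 0.274 and 0.109). Pfkfb2 ranged over 2.17 to 3.25 FPKM and overlapped between days.

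At the aldolase step, the minor isoform Aldoc (chr11:78322968-78327781 in mm10, + strand) fell at PD16. It had 2.10, 1.99 and 2.30 FPKM at PD14, 1.04, 1.53 and 1.24 at PD15, and 1.26, 0.972 and 0.940 at PD16. All PD15 and PD16 libraries lay below all PD14 libraries. The mean went from 2.13 ± 0.157 at PD14 to 1.27 ± 0.250 at PD15 and 1.06 ± 0.177 FPKM at PD16 (mean ± SD, n = 3). The log2 change was -0.47 ± 0.11 at PD15 (adjusted p = 0.103) and -0.61 ± 0.11 at PD16 (adjusted p = 0.0239, limma), on a scale that understates the change of a low gene. Aldoc rested on 72 to 168 fragments per library, and its call at PD16 was lost when PD14 replicate 1 (0.0677), PD14 replicate 3 (0.0934), PD16 replicate 1 (0.0548), PD16 replicate 2 (0.0640) or PD16 replicate 3 (0.0562) was left out, each value being the adjusted p. With no filter on low values it was lost too (adjusted p = 0.0678). Aldoa, the main isoform, had 123, 115 and 126 FPKM at PD14, 115, 110.5 and 103 at PD15, and 110.2, 111 and 97.5 at PD16, and differed by a log2 change of -0.19 at PD16 (adjusted p = 0.182).

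Among the triose steps, libraries of PD16 differed from each other. Tpi1, the triose phosphate isomerase, had 89.1, 89.7 and 94.3 FPKM at PD14, 83.5, 81.05 and 91.99 at PD15, and 100.3, 95.2 and 74.5 at PD16. Pgk1, phosphoglycerate kinase, had 64.3, 71.2 and 73.9 FPKM at PD14, 69.3, 66.2 and 76.2 at PD15, and 89.3, 85.1 and 67.1 at PD16. Pgam1, phosphoglycerate mutase, had 81.5, 85.8 and 81.3 FPKM at PD14, 82.9, 80.6 and 79.2 at PD15, and 99.8, 103 and 74.6 at PD16. In all 3, PD16 replicates 1 and 2 held the highest values of the 9 libraries, while PD16 replicate 3 lay within or below the range of PD14, so that PD16 overlapped PD14. The log2 changes at PD16 against PD14 were -0.028, 0.19 and 0.14 (adjusted p = 0.904, 0.327 and 0.476).

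Gapdh, the enzyme that oxidises glyceraldehyde 3-phosphate and a common reference gene, was listed at a low level. It had 2.28, 2.70 and 8.60 FPKM at PD14, 1.95, 11.3 and 1.99 at PD15, and 2.07, 2.01 and 1.86 at PD16. Those values were uneven within days, with PD14 replicate 3 and PD15 replicate 2 several times above the rest. The pseudogene Gm13394 had 185, 184 and 146 FPKM at PD14, 197, 188 and 208 at PD15, and 224, 238 and 178 at PD16. The pseudogene thus stood far above the gene, and PD14 replicate 3 was its lowest library. Fragments of Gapdh and its 75 listed copies, summed and scaled to the length of the Gapdh transcript, gave 147, 146 and 138 FPKM at PD14, 153, 173 and 161 at PD15, and 173, 182 and 139 at PD16. On that sum the log2 change was 0.17 at PD15 and 0.19 at PD16 against PD14 (adjusted p = 0.474 and 0.319).

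Enolase held the change with the smallest p among the members, in Eno1b (chromosome 18, + strand). Eno1b had 12.1, 15.1 and 15.1 FPKM at PD14, 5.95, 5.24 and 5.57 at PD15, and 6.57, 6.92 and 5.39 at PD16. PD15 and PD16 lay below PD14 with no overlap. The mean fell from 14.1 ± 1.75 at PD14 to 5.58 ± 0.355 at PD15 and 6.29 ± 0.801 FPKM at PD16 (mean ± SD, n = 3). The log2 change was -1.19 ± 0.10 (adjusted p = 0.00459) and -1.05 ± 0.10 (adjusted p = 0.00419), and it was called in each of the 20 alternatives that kept Eno1b as a row of its own.

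Eno1b is a near-identical copy of Eno1, the ubiquitous enolase (chr4:150236721-150248879, + strand), so both were also read together. Eno1 had 39.9, 36.9 and 43.3 FPKM at PD14, 40.2, 37.8 and 39.6 at PD15, and 48.99, 47.2 and 37.6 at PD16, and its days overlapped. The FPKM of Eno1 and Eno1b summed to 51.9, 52.02 and 58.4 at PD14, 46.1, 43.05 and 45.1 at PD15, and 55.6, 54.1 and 43.02 at PD16. The sum at PD15 lay below PD14 without overlap (log2 ratio of means -0.27, two-sided exact permutation p = 0.1, the smallest that 3 against 3 allows). At PD16 it overlapped PD14 (log2 ratio -0.088, exact permutation p = 0.600). That ratio has no settled sign, since it ran from -0.16 without PD16 replicate 1 to 0.019 without PD16 replicate 3, and was -0.030 without PD14 replicate 3.

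The pseudogene Gm4735 was listed at a higher FPKM than either gene. It had 65.5, 67.7 and 68.3 FPKM at PD14, 68.4, 65.3 and 69.00 at PD15, and 75.99, 81.3 and 62.2 at PD16. Its PD14 and PD15 libraries overlapped. With Eno1, Eno1b and the other copies summed as fragments per length of the Eno1 transcript, the libraries had 159, 156 and 173 FPKM at PD14, 156, 147 and 155 at PD15, and 185, 184 and 145 at PD16. The log2 change of that sum was -0.088 at PD15 and 0.069 at PD16 against PD14 (adjusted p = 0.731 and 0.727), so Eno1b passed as a row of its own and the summed family did not. Eno3, the muscle-type enolase, ranged over 5.52 to 7.21 FPKM, and Eno2, the neuronal one, over 0.526 to 0.985 FPKM.

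**Figure D3:**
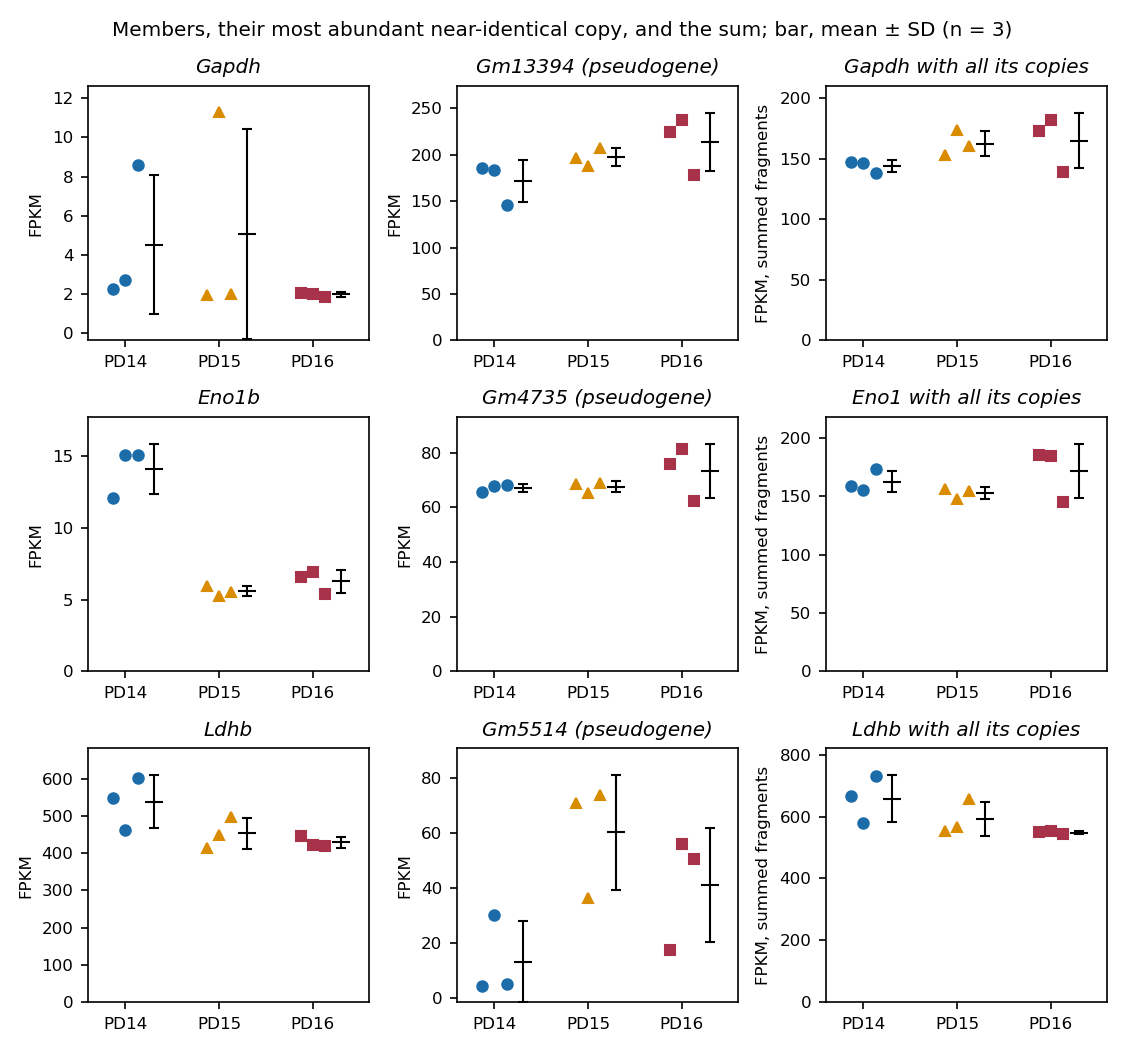
FPKM per library of Gapdh, Eno1b and Ldhb (left), of their most abundant near-identical pseudogene (middle), and of Gapdh, Eno1 or Ldhb with all copies, as summed fragments over the member's transcript length (right), with bars for mean ± SD (n = 3). Eno1b falls after PD14, whereas the sum of the Eno1 family overlaps between PD14 and PD15 and between PD14 and PD16.

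Pkm encodes pyruvate kinase, the last enzyme of glycolysis. It had 97.8, 98.4 and 102 FPKM at PD14, 112, 99.8 and 95.04 at PD15, and 89.6, 111 and 83.4 at PD16, and the days overlapped. The intervals of its log2 change were -0.20 to 0.28 at PD15 and -0.32 to 0.16 at PD16 against PD14.

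Lactate dehydrogenase is a tetramer of the Ldha subunit, whose enzyme favours lactate, and the Ldhb subunit, whose enzyme favours pyruvate. Ldhb had 549, 462 and 602 FPKM at PD14, 415, 448 and 497 at PD15, and 445, 423 and 418 at PD16. All PD16 libraries lay below all PD14 libraries, with a log2 change of -0.32 ± 0.12 that did not pass (adjusted p = 0.152) but did after quantile normalization (0.0238). Its pseudogene Gm5514 had 4.67, 30.3 and 5.29 FPKM at PD14, 70.9, 36.4 and 73.9 at PD15, and 17.7, 56.00 and 50.5 at PD16. That copy was uneven within every day, and with it summed the log2 change of Ldhb was -0.26 (adjusted p = 0.225). Ldha had 58.6, 65.3 and 65.9 FPKM at PD14, 72.3, 58.3 and 70.5 at PD15, and 89.9, 88.6 and 66.6 at PD16. All PD16 libraries lay above all PD14 libraries, with a log2 change of 0.35 ± 0.13 (adjusted p = 0.137), and without PD16 replicate 3 it passed (adjusted p = 0.0476).

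Among the monocarboxylate carriers, Slc16a1 lay higher and Slc16a3 lower than at PD14. Slc16a1, the carrier MCT1 for lactate and pyruvate, had 23.1, 20.9 and 20.4 FPKM at PD14, 25.3, 24.4 and 27.2 at PD15, and 27.8, 25.9 and 24.1 at PD16. Every PD15 and PD16 library lay above every PD14 library, with log2 changes of 0.24 ± 0.072 and 0.26 ± 0.072, and neither passed (adjusted p = 0.166 and 0.0755). Slc16a3, the lactate exporter MCT4, had 4.01, 4.13 and 4.25 FPKM at PD14, 3.83, 3.62 and 3.67 at PD15, and 3.29, 3.79 and 3.37 at PD16. It lay below PD14 in every later library, with log2 changes of -0.12 and -0.19 (adjusted p = 0.413 and 0.115). Slc16a7 (MCT2) ranged over 0.632 to 0.960 FPKM.

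At the gate of the mitochondrion, Pdk2 fell. Pdk2 (chr11:95026258-95041354 in mm10, - strand) encodes a kinase that switches pyruvate dehydrogenase off. It had 15.4, 14.9 and 14.7 FPKM at PD14, 13.1, 14.2 and 12.6 at PD15, and 10.9, 12.8 and 11.4 at PD16. The means ran downwards, and neither PD15 nor PD16 overlapped PD14. The mean went from 14.98 ± 0.345 at PD14 to 13.3 ± 0.798 at PD15 and 11.7 ± 1.00 FPKM at PD16 (mean ± SD, n = 3). The log2 change was -0.16 ± 0.069 at PD15 (adjusted p = 0.315) and -0.34 ± 0.069 at PD16 (adjusted p = 0.0314). The call at PD16 was lost without PD14 replicate 1 (adjusted p = 0.0957), PD14 replicate 2 (0.0658), PD14 replicate 3 (0.0951), PD16 replicate 1 (0.105) or PD16 replicate 3 (0.0714). It was also lost with no filter on low values (adjusted p = 0.0721), after scaling to TPM (0.0688) and with the libraries of PD14 and PD16 alone (0.0555).

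The other kinases of this family did not pass. Pdk1 had 3.63, 4.84 and 5.85 FPKM at PD14, 6.50, 7.97 and 6.20 at PD15, and 4.51, 4.46 and 3.89 at PD16. All PD15 libraries lay above all libraries of the other days, with log2 changes of 0.46 ± 0.14 at PD15 against PD14 (adjusted p = 0.171) and -0.57 ± 0.14 at PD16 against PD15 (adjusted p = 0.101). The summed oocyte markers were also highest at PD15, and their part in this was not tested. Pdk4 had 2.81, 3.81 and 4.03 FPKM at PD14, 4.03, 3.78 and 3.69 at PD15, and 5.49, 3.61 and 5.12 at PD16. Its log2 change was 0.33 for PD16 against PD14 (adjusted p = 0.200), and PD16 replicate 2 lay within the PD14 range. Pdk3 had 13.4, 13.3 and 15.03 FPKM at PD14, 13.2, 12.8 and 14.4 at PD15, and 13.5, 13.4 and 13.001 at PD16. Its days overlapped. Over all 9 libraries its listed mean of 13.6 FPKM was the highest of the 4, with Pdk2 at 13.3. Exon lengths were 2561 bases for Pdk3 and 3163 for Pdk2, beside transcripts of 2115 and 2246 bases. That order thus does not hold per transcript length. At PD14, however, Pdk2 had the higher mean, at 14.98 against 13.9 FPKM. Pdha1, the catalytic subunit that these kinases act on, had 21.7, 19.9 and 21.4 FPKM at PD14, 20.3, 19.7 and 23.3 at PD15, and 22.8, 20.6 and 21.3 at PD16, and its intervals were -0.16 to 0.17 at PD15 and -0.13 to 0.20 at PD16 against PD14.

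**Figure D4:**
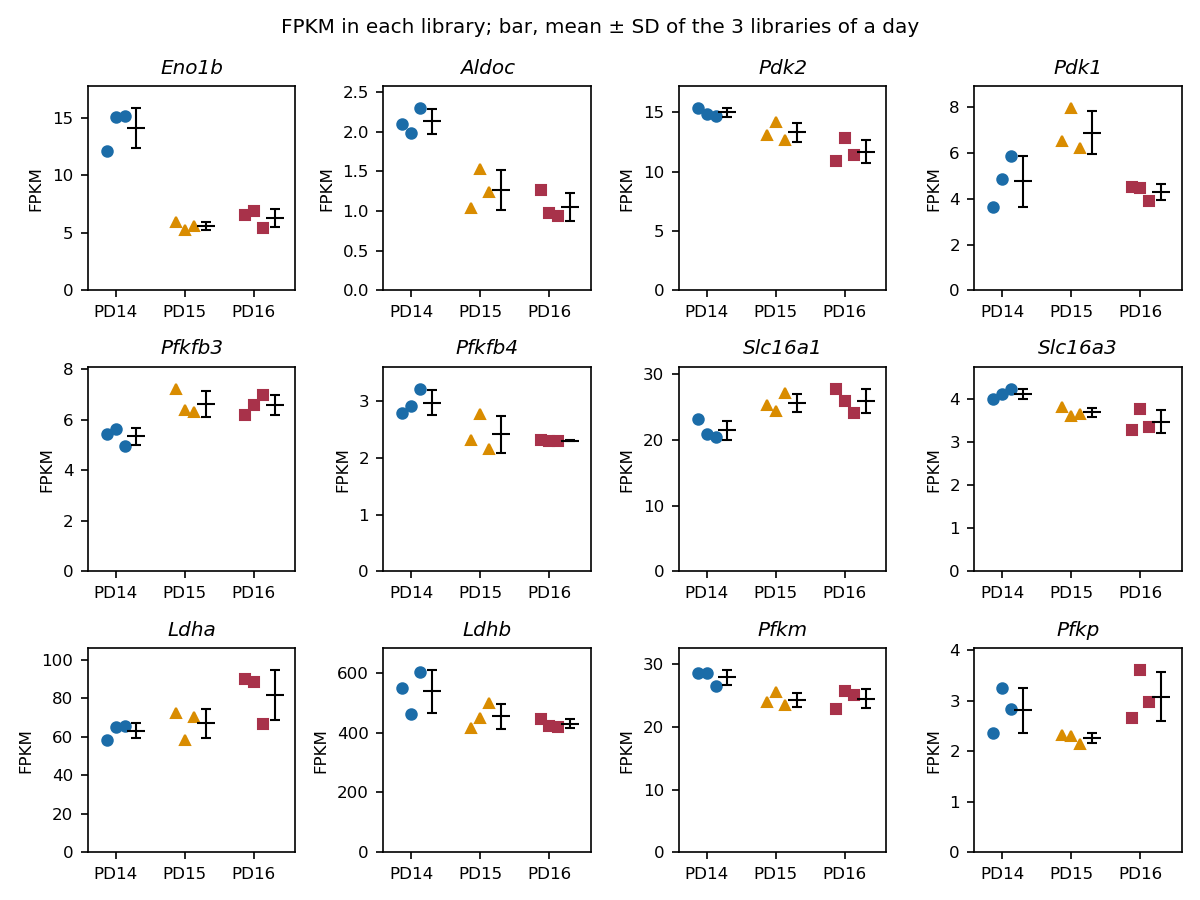
FPKM per library of 12 members at PD14, PD15 and PD16, with bars for mean ± SD (n = 3) and axes from 0. Eno1b, Aldoc, Pdk2, Pfkfb4, Slc16a3 and Pfkm lie lower after PD14, Pfkfb3 and Slc16a1 lie higher, and Pdk1 is highest at PD15. Of these, Eno1b, Aldoc and Pdk2 passed the test.

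Whether isoforms exchanged within a step was asked with 9 shares of summed FPKM, each tested by an exact one-sided permutation of F over all 280 groupings and adjusted over the 9. Listed FPKM rests on exon length, which exceeds transcript length by unequal factors, so the shares are not those of transcripts. The exon and transcript lengths were 8532 and 3851 bases for Hk1, 5969 and 5513 for Hk2, and 13401 and 4145 for Pfkp. No share passed after adjustment. Aldoc took 1.72 ± 0.0579% at PD14, 1.15 ± 0.241% at PD15 and 0.983 ± 0.135% at PD16 (mean ± SD, n = 3; exact permutation p = 0.0143, adjusted p = 0.0964) of aldolase. Slc16a1 took 81.2 ± 1.40% at PD14, 85.1 ± 0.684% at PD15 and 85.7 ± 1.38% at PD16 (mean ± SD, n = 3; exact permutation p = 0.0214, adjusted p = 0.0964) of the 3 carriers. Ldhb took 89.4 ± 1.53% at PD14, 87.1 ± 1.71% at PD15 and 84.05 ± 1.93% at PD16 (mean ± SD, n = 3; exact permutation p = 0.0429, adjusted p = 0.0964) of lactate dehydrogenase. These 3 shares moved one way over the means of the days, and Pfkp, at 6.30 ± 0.898% at PD14, 5.56 ± 0.0278% at PD15 and 7.38 ± 0.626% at PD16 (mean ± SD, n = 3; exact permutation p = 0.0429, adjusted p = 0.0964) of phosphofructokinase, was lowest at PD15. The Ldhb share left out its uneven pseudogene Gm5514. With copies summed and scaled to transcript length, Ldhb had means of 658, 592 and 548 FPKM at PD14, PD15 and PD16. Ldha then had 119, 126 and 153 FPKM.

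The remaining shares gave larger p-values. Hk2 took 41.2 ± 2.42% at PD14, 43.8 ± 0.847% at PD15 and 47.05 ± 3.45% at PD16 (mean ± SD, n = 3; exact permutation p = 0.0786, adjusted p = 0.118) of hexokinase. Pdk4 took 9.50 ± 1.31% at PD14, 10.2 ± 0.624% at PD15 and 13.9 ± 2.97% at PD16 (mean ± SD, n = 3; exact permutation p = 0.0607, adjusted p = 0.109) of the 4 kinases. The shares of Pfkm, Slc2a1 and Eno2 had adjusted p = 0.147, 0.422 and 0.818 in the same exact test, with Slc2a1 at 37.3%, 37.1% and 38.3% of the 5 transporters.

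**Figure D5:**
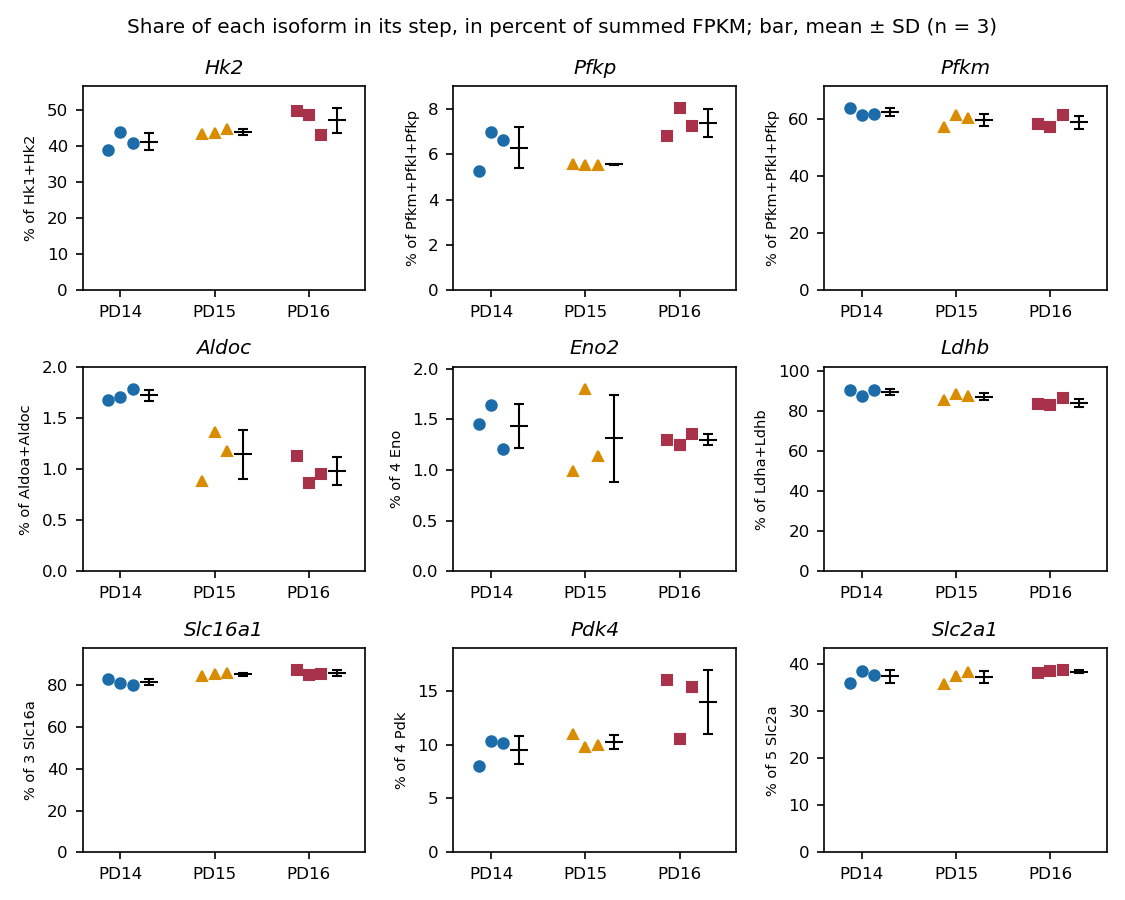
Share of 9 isoforms in the summed FPKM of their step, in percent, per library at PD14, PD15 and PD16, with bars for mean ± SD (n = 3). The shares of Aldoc and Ldhb are lower and that of Slc16a1 is higher at PD16 than at PD14, by small steps, and none passed the adjusted exact test.

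Promoter sequence was searched for letters shared between members. RefSeq (GRCm38.p6) gave a window for 31 of the 35 members, and the 250 bases before the start site were searched on both strands for ACGTG, the core recognised by hypoxia-inducible factors, and for CACGTG, the E-box recognised by Myc and related factors, which holds the core on each strand. The core was present for 12 members (38.7%) and in 16.6% of all 32851 windows. The E-box was present for 4 members, namely Slc16a1, Pfkfb2, Pfkfb3 and Pdk2, and in 6.02% of all windows. Each member was read by the window nearest its principal start, whereas the background took every window, with no choice by gene or level. The percentages thus rest on unlike sets. Of the 3 members that fell, Pdk2 held both, the window of Aldoc held neither, and Eno1b had no window. Pdk1, Pfkfb4, Ldha and Ldhb held neither, while Pfkfb2, whose days overlapped, held the E-box. These matches are letters in a window and not sites shown to be bound. The 3 windows below were chosen because they hold the E-box and belong to the fallen Pdk2 (chr11:95041372-95041621, - strand) and to Pfkfb3 (chr2:11502091-11502340, - strand) and Slc16a1 (chr3:104638414-104638663, + strand), which lay higher but did not pass. Capitals mark the E-box.
Pdk2: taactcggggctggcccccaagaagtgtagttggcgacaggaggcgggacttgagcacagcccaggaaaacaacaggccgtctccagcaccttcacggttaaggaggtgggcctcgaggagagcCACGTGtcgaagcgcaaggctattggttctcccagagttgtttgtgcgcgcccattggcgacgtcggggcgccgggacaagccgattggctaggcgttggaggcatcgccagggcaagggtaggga
Pfkfb3: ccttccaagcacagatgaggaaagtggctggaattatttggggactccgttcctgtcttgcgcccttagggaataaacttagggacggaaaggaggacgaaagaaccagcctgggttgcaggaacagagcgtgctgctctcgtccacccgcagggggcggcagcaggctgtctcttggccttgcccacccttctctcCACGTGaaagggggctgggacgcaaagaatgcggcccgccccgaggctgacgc
Slc16a1: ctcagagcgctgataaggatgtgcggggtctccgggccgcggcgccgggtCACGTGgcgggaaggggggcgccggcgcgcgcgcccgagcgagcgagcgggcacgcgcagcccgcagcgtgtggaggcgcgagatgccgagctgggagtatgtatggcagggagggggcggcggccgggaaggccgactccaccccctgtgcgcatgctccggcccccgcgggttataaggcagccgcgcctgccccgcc

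Around the members, 70 further genes of glucose metabolism were read from lists of other isoforms, pyruvate entry, the pentose phosphate pathway, glycogen, gluconeogenesis and regulators. Of these, 54 were tested, and 3 passed, all at PD16 against PD14, where 4.25% of all tested genes did, so the share of these genes was near the background. Myc, a transcription factor with many glycolytic targets, rose. It had 14.3, 19.1 and 18.1 FPKM at PD14, 22.4, 20.04 and 19.2 at PD15, and 29.1, 23.2 and 33.5 at PD16. Its log2 change was 0.70 ± 0.14 (adjusted p = 0.0294). Every PD16 library lay above every library of the other days. Pygl, the liver-type glycogen phosphorylase, fell by 0.30 on the log2 scale (adjusted p = 0.0369), from 8.19 ± 0.267 to 6.45 ± 0.318 FPKM (mean ± SD, n = 3). Pck2, the mitochondrial phosphoenolpyruvate carboxykinase, fell by 0.39 (adjusted p = 0.0454), from 39.3 ± 1.25 to 29.9 ± 3.58 FPKM. For Pygl and Pck2 the PD14 and PD16 libraries did not overlap. The calls of Myc, Pygl and Pck2 were not followed through the alternative settings. Over all tested genes, the 659 calls at PD16 against PD14 became 92 without PD16 replicate 1.

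By list, 0 of 8 other isoforms, 0 of 11 pyruvate entry genes, 0 of 7 pentose phosphate genes, 1 of 8 glycogen genes, 1 of 5 gluconeogenesis genes and 1 of 15 regulators passed at PD16 against PD14. The median log2 change at PD16 was highest for the regulators, at 0.14, and lowest for gluconeogenesis, at -0.15, beside 0.0093 for all tested genes. The study's figures describe the replicates as biologically independent ovaries, while the labels give replicate numbers alone. The tests thus weigh differences between days against the spread between these libraries.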

How the data were processed

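RNA was extracted with TRIzol, NEBNext Ultra libraries were made, and an Illumina HiSeq was used for sequencing. The submitters' processing notes name HISAT2 2.0.5 and mm10; the counting tool and the annotation release are not given in the sources used here. The authors deposited FPKM per gene and library, without raw counts. Genes were matched to GENCODE M21 by identifier (96.8% of identifiers). Depth was read from the FPKM step of 1 fragment and M21 exon lengths; 94.9% to 95.3% of values worth under 20 fragments were whole multiples within 0.05.

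Libraries were grouped by day (PD14, PD15, PD16; n = 3 each). Values were analysed as log2(FPKM + 1), a scale that understates changes of low genes, in one limma fit (trend) over all 9 libraries and the 15495 genes whose mean exceeded 1 FPKM on 1 day or more, with Benjamini-Hochberg adjustment over all of them. Shares and the Eno1 sum used exact permutation tests. Copies were found by aligning GENCODE M21 transcripts with BLAST 2.17.0. Python 3.11.15, Matplotlib 3.10.9, pandas 2.3.3, NumPy 2.4.6, limma 3.58.1 and R 4.3.3 were used. The tests were checked on simulated data.

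Members and lists were chosen with earlier results of these data known. Named genes were all members by step, with per-library values for those called, those with an unadjusted p under 0.05, those the study measured by qRT-PCR, Eno1 and Eno1b and the most abundant isoform of each step; other pathway genes were named where called. The settings varied were the pseudocount, the filter, the scaling, limma's options, a replicate block, summed copies and the omission of each library. The libraries were treated as ovaries, since the labels give both ovary and granulosa cells.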

Additional observations from a re-analysis of the deposited data

How the results depend on the processing

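Among the tested members Aldoc had the fewest fragments, 72 in its lowest library. At PD15 against PD14 the count of called members was 1 and became 0 when Eno1 and Eno1b were summed or when members were summed with their copies, a setting chosen after seeing the data, since Eno1b is then no row of its own; without each library in turn it stayed at 1. At PD16 against PD14 the count of 3 became 1 with no filter on low values and 1 with the replicate block (Eno1b, with Aldoc at an adjusted p of 0.0639 and Pdk2 at 0.0576), and ran from 1 to 3 without each library in turn. Over all alternatives its highest value was 4. By the F test the count of 2 became 1 with no filter, with the replicate block, with Eno1 and Eno1b summed, with copies summed, and without any single library (1 to 1). The highest F test count under an alternative was 3. Replicate numbers gave no sign of pairing: correlations of same-numbered libraries ran from -0.21 to 0.16, and those of differently numbered ones from -0.20 to 0.21. Such ranges cannot show that pairing is absent. Over all genes, called counts of 105, 659, 113 and 469 (PD15 against PD14, PD16 against PD14, PD16 against PD15, any day) became 29, 172, 24 and 95 with no filter and 24, 227, 56 and 127 with the replicate block; other counts that moved by over 1.5 times were 59 (PD15 against PD14) with a mean above 5 FPKM, 397 (PD16 against PD14) and 309 (any day) with TPM, and 47 and 320 from the libraries of 2 days only. Without single libraries they ran from 3 to 92, 92 to 660, 14 to 125 and 100 to 354. The 517 alternative values of single members held 0 reversals, 16 lost calls (Aldoc 7, Pdk2 9) and 2 gained calls (Ldha, Ldhb). The members' median log2 change stayed within -0.075 to -0.023, -0.11 to -0.042 and -0.018 to 0.027, each within the 0.046 SD between libraries of a day around its value. No share passed under any alternative. The cause of these moves was not tested.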

Other observations

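Relative to each gene's mean over all libraries, the median deviation of the members in log2(FPKM + 1) was -0.010, 0.020 and 0.053 in PD14 replicates 1 to 3, -0.0050, 0.0048 and -0.083 in those of PD15, and -0.067, 0.0042 and -0.10 in those of PD16. For all genes tested it ran from -0.0093 to 0.0075. Among the 22 tested members with no near-identical copy, 8 were higher and 14 lower at PD15 against PD14, and 7 were higher and 15 lower at PD16 against PD14, with a median log2 change of -0.067 and -0.079. This set was chosen after seeing the data.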
